A study of Mus musculus with 4 samples.

Results

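White adipocytes store triglyceride in a single large lipid droplet and secrete hormones. A small set of genes, several of which brown adipocytes also express, is used to mark white adipocytes in a mixed tissue. The set analysed here held 10 of these genes, Adipoq, Lep, Retn, Cfd, Plin1, Cidec, Fabp4, Car3, Hcar1 and Lipe, found by gene symbol among the 23282 rows that each heart library lists. All 10 were present, each on 1 row. The members were selected on their deposited values in these same libraries, so every count over them is a description and is not evidence for a direction.

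Heart mRNA was sequenced in 4 libraries, 1 per group of CDF1 mice labelled postnatal day 28. The authors give this age for the purchase of the mice, and tissues were isolated later, at the end of the experiment. Normal control mice had neither treatment (E-T- in the plots), and normal exercise mice ran on a treadmill at high intensity (E+T-). Cancer control mice received CT26 cells, a murine colorectal carcinoma line, through the tail vein (E-T+), and mice of the cancer exercise group had both (E+T+). These group names also stand for the groups' libraries. The groups had 10 male mice each, and the sources used here do not say how many hearts went into a heart library. With n = 1 library per group there is no spread between replicates, no test of exercise or cancer is possible, and every difference below is between libraries.

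In adipocytes, Adipoq encodes adiponectin, Lep encodes leptin, Retn encodes resistin and Cfd encodes adipsin, the complement factor D protease, all 4 of them secreted. Plin1 encodes perilipin, which coats the lipid droplet and guards it from lipases, Cidec encodes a protein that fuses droplets, and Lipe encodes hormone-sensitive lipase. Fabp4 encodes a fatty acid carrier that capillary endothelium and macrophages also make in quantity, and Lipe is also expressed by cardiomyocytes. Car3 encodes a carbonic anhydrase of adipocytes, liver and slow skeletal muscle, and Hcar1 encodes the lactate receptor through which lactate restrains lipolysis. Fat lies on the outer surface of the heart and at its great vessels, and a heart that is cut out can carry some of it.

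Values are the deposited log2(normalized read count + 1), where the normalized count was made comparable between libraries by the authors. Whole reads were recovered from these values, 6595429 for normal control, 8477184 for normal exercise, 9532886 for cancer control and 11545858 for cancer exercise. The 3′ tag libraries read a captured transcript near its 3′ end, so read numbers do not scale with transcript length. Where genes are set side by side below, the numbers are of reads and not of transcripts. Of the reads of cancer exercise, 37.3% were from globin genes, against 7.86 to 8.76% in the others, so that library stands apart. No comparison that uses cancer exercise can be made without it, and normal exercise against normal control and cancer control against normal control do not use it. The 10 cardiomyocyte markers were all read in every library, with summed normalized counts between 449326 and 493834, and none differed by 2-fold on the deposited values in any comparison.

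A gene was called where the deposited values differed by 2-fold or more and the larger normalized count reached 4. Each interval is a 95% Clopper-Pearson interval, for a read ratio scaled by effective library size. It covers counting error alone, and reads copied by PCR do not stand for separate molecules. Where 1 library had 0 reads, the difference was computed against 3 reads and is written as at least that much, without the counting error of the other library. Adjusted 0-read genes can have a deposited value slightly above 0.

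The members spanned the expressed genes from percentile 15.3 (Lep) to 99.7 (Fabp4). The mean normalized count over the 4 libraries was 16822 for Fabp4, 949.9 for Cfd, 391.2 for Lipe, 222.3 for Adipoq, 152.7 for Car3, 131.5 for Cidec, 46.97 for Retn, 39.13 for Plin1, 6.807 for Hcar1 and 2.196 for Lep. Fabp4 ranked 45 among 23238 symbols and made up 85.8 to 94.9% of the reads of all 10 members. Without Fabp4, the 9 others summed to 2598 reads in normal control, 1030 in normal exercise, 799 in cancer control and 2893 in cancer exercise. These reads are not scaled between libraries. The normalized sums of the 9 were 2974, 930.5, 703.4 and 3163 in the same order, highest in cancer exercise. Scaled to library size, as CPM, the sums were 394, 122, 83.8 and 251, highest in normal control. As a share of all recovered reads, the 10 members made up 0.305, 0.208, 0.164 and 0.176%.

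**Figure D1:**
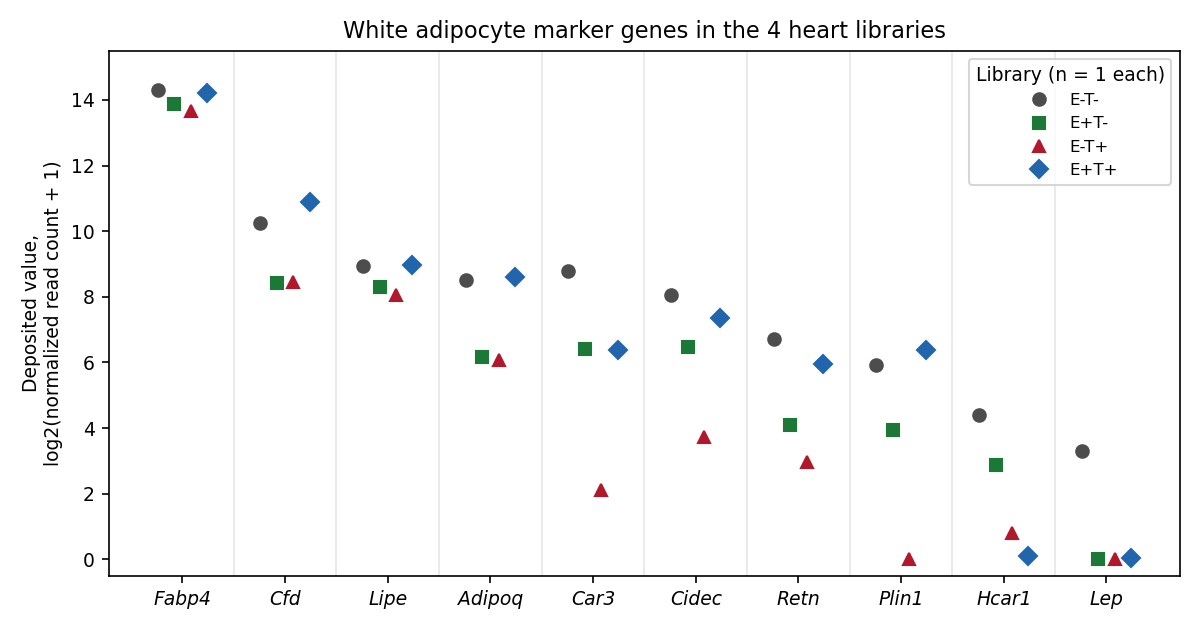
Deposited value of each white adipocyte marker, log2(normalized read count + 1) on the y axis, in each of the 4 heart libraries (1 point per library, genes ordered by mean). Adipoq, Cfd and Plin1 were high in normal control and cancer exercise and lower in normal exercise and cancer control. Plin1, like Car3 and Cidec, was lowest in cancer control, where it had 0 reads. Lep had reads in normal control alone.

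Adiponectin is the most abundant hormone of fat cells. Adipoq (mm10 chr16:23146536-23158028, + strand) had 317 reads in normal control, 78 in normal exercise, 76 in cancer control and 356 in cancer exercise. Its levels thus fell into a high pair and a low pair, and within each pair the deposited values were close, at 8.508 and 8.608 against 6.157 and 6.083. The log2 difference was −2.35 (95% interval −2.74 to −2.0) for normal exercise against normal control and 2.53 (2.18 to 2.91) for cancer exercise against cancer control. For cancer control against normal control it was −2.42 (−2.82 to −2.07), and for cancer exercise against normal exercise it was 2.45 (2.11 to 2.84).

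Adipsin was the most highly expressed of the secreted members. Cfd (chr10:79890853-79892655, + strand) had 1071, 375, 395 and 1724 reads in the normal control, the normal exercise, the cancer control and the cancer exercise library. It showed the same high and low pairs as Adipoq, with cancer exercise at 10.881 and normal control at 10.263. Scaled to library size, as CPM, the order of these 2 turned, at 149 and 162. Its log2 differences were −1.85 (−2.03 to −1.68) with exercise and −1.81 (−1.99 to −1.65) with tumor, each against normal control. In cancer exercise it was higher by 2.43 (2.28 to 2.60) than in cancer control and by 2.47 (2.31 to 2.64) than in normal exercise.

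Resistin was named for its link to insulin resistance in mice. Retn (chr8:3655770-3660110, + strand) had 91 reads in normal control, 18 in normal exercise, 8 in cancer control and 56 in cancer exercise. The normal control held its highest value, with cancer exercise next. The log2 differences were −2.61 (−3.50 to −1.94) for normal exercise and −3.74 (−5.14 to −2.85) for cancer control, each against normal control, and 2.99 (2.04 to 4.40) for cancer exercise against cancer control.

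Leptin signals the size of fat stores to the brain. Lep (chr6:29060220-29073877, + strand) had 8 reads in normal control and 0 in each of the other 3 libraries. It was at least 3.39-fold lower in normal exercise and at least 3.46-fold lower in cancer control than in normal control, with 3 reads in place of 0 and the 8 reads taken as they are. With the counting error of the 8 reads included, the 95% limits of these log2 differences were −1.11 and −1.15. A count of 0 in cancer exercise allows up to 3 reads, at an effective size of 0.914 against 0.872 for normal control. No fold can be given between libraries that both had 0 reads.

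Perilipin and CIDEC sit on the lipid droplet. Plin1 (chr7:79720218-79732903, − strand) had 52 reads in normal control, 16 in normal exercise, 0 in cancer control and 76 in cancer exercise. It was at least 22.5-fold lower in cancer control than in normal control and at least 31.3-fold higher in cancer exercise than in cancer control. Cidec (chr6:113424634-113435760, − strand) had 230, 96, 14 and 150 reads in the same order. The cancer control was lowest for both genes, and the log2 difference of Cidec there was −4.33 (−5.31 to −3.64) against normal control. With exercise in the absence of tumor, the differences were −1.98 (−2.95 to −1.21) for Plin1 and −1.59 (−1.96 to −1.25) for Cidec. Cidec was higher by 3.65 (2.94 to 4.64) in cancer exercise than in cancer control, whereas its difference of 0.91 (0.54 to 1.30) between cancer exercise and normal exercise was not called.

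Carbonic anhydrase 3 is among the most abundant proteins of mouse fat. Car3 (chr3:14863512-14872523, + strand) had 386 reads in normal control, 93 in normal exercise, 4 in cancer control and 75 in cancer exercise. Its values spanned 6.68 on the log2 scale. The log2 difference was −6.68 (−8.85 to −5.60) for cancer control against normal control, −2.38 (−2.74 to −2.06) for normal exercise against normal control and 4.27 (3.12 to 6.45) for cancer exercise against cancer control. The exercised libraries with and without tumor did not differ beyond counting error, at −0.03 (−0.49 to 0.42), although under scaling to library size this value was −0.75. As Car3 is also a muscle gene, 10 skeletal muscle markers were read beside it. All 10 are genes of fast fibres, so they cannot show slow muscle, and a muscle source of Car3 was not tested. They summed to 61, 44, 124 and 98 reads in the normal control, the normal exercise, the cancer control and the cancer exercise library, with normalized sums of 70.14, 39.38, 110 and 106.8.

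Hcar1 (chr5:123876736-123880020, − strand) had 18 reads in normal control, 7 in normal exercise, 1 in cancer control and 0 in cancer exercise. Unlike Adipoq, it did not have its higher counts in cancer exercise. The log2 difference was −1.53 (−3.21 to −0.38) for normal exercise and −3.59 (−9.93 to −1.88) for cancer control, each against normal control. Hcar1 was at least 1.93-fold lower in cancer exercise than in normal exercise, a bound that stays under 2-fold although the deposited values met the definition of a call. No fold can be given for cancer exercise against cancer control.

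The members that other heart cells express varied least. Fabp4 (chr3:10204088-10208576, − strand) had 17512, 16644, 14859 and 17425 reads in the normal control, the normal exercise, the cancer control and the cancer exercise library, and its deposited values ran from 13.678 to 14.293. Lipe (chr7:25379527-25398710, − strand) had 425, 347, 301 and 456 reads, with values from 8.057 to 8.965. Neither reached 2-fold in any comparison, and the largest differences were −0.61 (−0.65 to −0.58) for Fabp4 in cancer control against normal control and 0.91 (0.70 to 1.12) for Lipe in cancer exercise against cancer control. On the deposited values both were higher in normal control and cancer exercise than in the other libraries. Scaled to library size this did not hold, as Fabp4 was lowest in cancer exercise, at 1509 CPM against 1559 to 2655, and Lipe was at 39.5 there and at 40.9 in normal exercise. The antisense gene 4732471J01Rik overlaps Lipe and had 1 or 2 reads in each library, and whether reads were counted by strand is not given in the sources used here. No annotated gene of GENCODE M21 overlaps any of the other 9 members.

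Promoter sequence is shown for 4 members that were at least 2-fold lower in both normal exercise and cancer control than in normal control, and that hold a match to TTNNGNAA, the core read by C/EBP factors of adipocyte differentiation. RefSeq starts (GRCm38.p6, the build of mm10) were found for 8 members, without Fabp4 and Car3. The 250 bases before the start are given 5′ to 3′ on the gene's strand, with matches on either strand in capitals.
Adipoq, chr16:23146286-23146535, + strand: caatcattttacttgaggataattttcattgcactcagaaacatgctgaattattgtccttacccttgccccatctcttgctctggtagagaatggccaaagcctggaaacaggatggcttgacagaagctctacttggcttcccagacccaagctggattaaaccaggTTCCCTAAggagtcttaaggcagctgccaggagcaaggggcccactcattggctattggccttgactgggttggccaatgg
Lep, chr6:29059971-29060220, + strand: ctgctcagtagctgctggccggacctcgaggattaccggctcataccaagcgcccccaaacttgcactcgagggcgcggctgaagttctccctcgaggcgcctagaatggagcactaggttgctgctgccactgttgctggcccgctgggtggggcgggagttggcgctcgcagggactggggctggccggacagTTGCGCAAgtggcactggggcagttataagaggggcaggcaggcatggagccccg
Plin1, chr7:79732777-79733026, − strand: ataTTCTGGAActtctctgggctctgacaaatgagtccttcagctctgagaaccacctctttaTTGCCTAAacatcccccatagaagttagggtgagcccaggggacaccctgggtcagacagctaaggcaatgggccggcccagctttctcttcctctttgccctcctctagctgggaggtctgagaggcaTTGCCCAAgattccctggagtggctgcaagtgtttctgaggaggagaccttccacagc
Cidec, chr6:113435761-113436010, − strand: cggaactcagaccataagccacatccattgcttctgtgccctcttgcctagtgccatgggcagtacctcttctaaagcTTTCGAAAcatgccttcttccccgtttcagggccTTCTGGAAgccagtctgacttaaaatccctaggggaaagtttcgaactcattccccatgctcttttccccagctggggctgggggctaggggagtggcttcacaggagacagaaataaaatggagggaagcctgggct
The Lep match TTGCGCAA and the first Cidec match TTTCGAAA read the same on both strands. The motif was in the windows of 4 of 8 members and in 36.8% of all 32851 promoter windows of that length, so these letters are common. TATAAA was in none of the 8 (12.4% of all windows), CCAAT was in Adipoq alone (33.8%), and the direct repeat bound by PPARG with its partner RXR was in none (0.338%). No CCAAT overlapped a TTNNGNAA match. A match is a run of letters and not a bound site, and a window without one says nothing about the factor.

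High-intensity exercise in mice without tumor was addressed by normal exercise against normal control. All 10 members had lower deposited values in normal exercise, and 8 were called lower, among 13930 genes tested of which 6.40% were called lower and 5.88% higher. The secreted members were called 4 of 4, the droplet genes and lipase 2 of 3, and Car3 and Hcar1 were called as well. The median log2 difference of the members was −1.92 where the median of all genes tested was 0.002, and with Lep at its bound of 3 reads it was −1.81. Apart from Lep, the values ran from −2.61 for Retn to −0.41 for Fabp4.

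Tumor in mice without exercise was addressed by cancer control against normal control, which shares its control library with the exercise comparison. The same number of members, 8, was called lower, against a background of 13.1% of 14311 genes (14.6% higher). The median was −3.44, or −3.01 with Lep and Plin1 at their bounds, and the range was −6.68 to −0.61. Side by side, the differences of Adipoq were −2.35 with exercise and −2.42 with tumor and those of Cfd −1.85 and −1.81. For Cidec they were −1.59 and −4.33, and for Car3 −2.38 and −6.68.

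Exercise in tumor-bearing mice was addressed by cancer exercise against cancer control. Of the 10 members, 8 could be tested and 6 were called higher, namely Adipoq, Retn, Cfd, Plin1, Cidec and Car3, against a background of 9.39% of 14357 genes (10.0% lower). Lep and Hcar1 had at most 1 read in either library. The median over the 8 was 2.76, and the values ran from 0.54 for Fabp4 to at least 4.97 for Plin1, taken at its bound. These 6 genes were lower with exercise without tumor and higher with exercise with tumor, a pattern found in 1.07% of the 13384 genes tested in both comparisons. The members were selected on these same values, so the count is a description. Under scaling to library size, which shifted all genes by a median of −0.59, the same number of members was called higher and Fabp4 turned from 0.54 to −0.05.

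Tumor in exercised mice was addressed by cancer exercise against normal exercise. Adipoq, Retn, Cfd and Plin1 were called higher, against a background of 12.0% of 14282 genes, and Hcar1 lower, against 11.1%. The difference of Retn was 1.86 (1.12 to 2.77) and that of Plin1 2.45 (1.73 to 3.40). Car3, Cidec, Lipe and Fabp4 were not called, and the values of Lipe and Fabp4, 0.67 and 0.34, turned to −0.05 and −0.38 under scaling to library size.

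**Figure D2:**
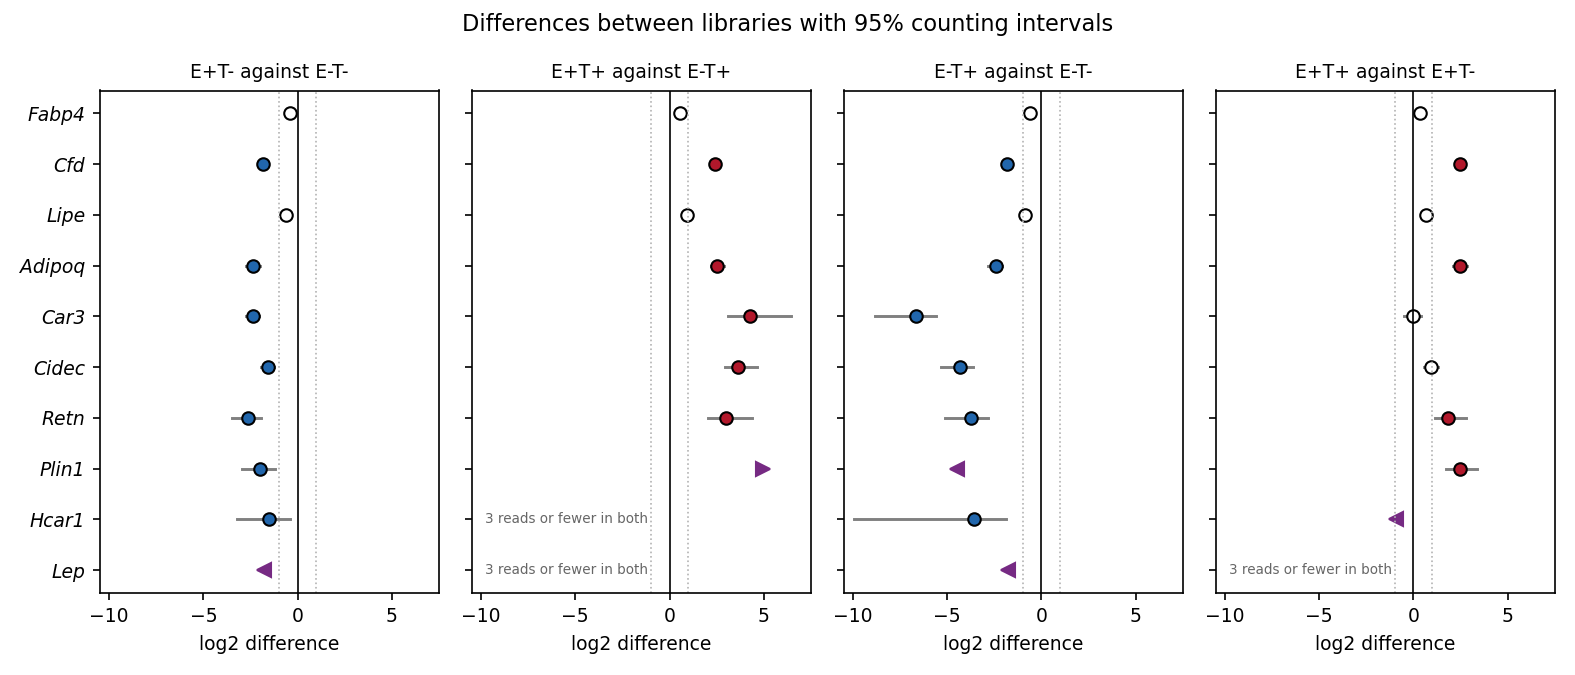
Log2 differences of the members in the 4 comparisons (x axis), with 95% counting intervals as bars. Filled points were called higher (red) or lower (blue), open points were not called, triangles are bounds against 3 reads and dotted lines mark 2-fold, with 8, 6, 8 and 5 members called from the left panel to the right.

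The makeup of the adipocyte reads within a library does not depend on any scaling between libraries. Cfd gave 3.38 reads per Adipoq read in normal control (95% interval 2.98 to 3.84), 4.81 in normal exercise (3.76 to 6.22), 5.20 in cancer control (4.06 to 6.73) and 4.84 in cancer exercise (4.32 to 5.44). Its ratio to Adipoq was thus nearly level over the 3 libraries other than normal control. Plin1 gave 0.164 (0.120 to 0.220), 0.205 (0.112 to 0.354) and 0.213 (0.164 to 0.274) reads per Adipoq read in normal control, normal exercise and cancer exercise, intervals that overlap. In cancer control it had none on 76 Adipoq reads, an upper limit of 0.0497, below the other 3 intervals.

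Car3 and Cidec separated the libraries by tumor instead. Car3 gave 1.22 (1.05 to 1.42) reads per Adipoq read in normal control and 1.19 (0.873 to 1.63) in normal exercise, but 0.0526 (0.0140 to 0.140) in cancer control and 0.211 (0.162 to 0.271) in cancer exercise. Cidec gave 0.726 (0.610 to 0.863) and 1.23 (0.903 to 1.68) without tumor, and 0.184 (0.0962 to 0.328) and 0.421 (0.346 to 0.511) with tumor. For both genes the intervals of the libraries with tumor lay below those of the libraries without. Retn was 0.287 (0.225 to 0.363) in normal control and 0.157 (0.116 to 0.209) in cancer exercise, and Lep and Hcar1, with 8 and 18 reads on 317 Adipoq reads in normal control, had 0 on 356 in cancer exercise. Relative to normal control, the cancer exercise library thus had fewer Car3, Cidec, Retn, Lep and Hcar1 reads per Adipoq read. The ratio of Lipe was high where Adipoq was low, with 1.34 and 1.28 Lipe reads per Adipoq read in normal control and cancer exercise, and 4.45 and 3.96 in normal exercise and cancer control.

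**Figure D3:**
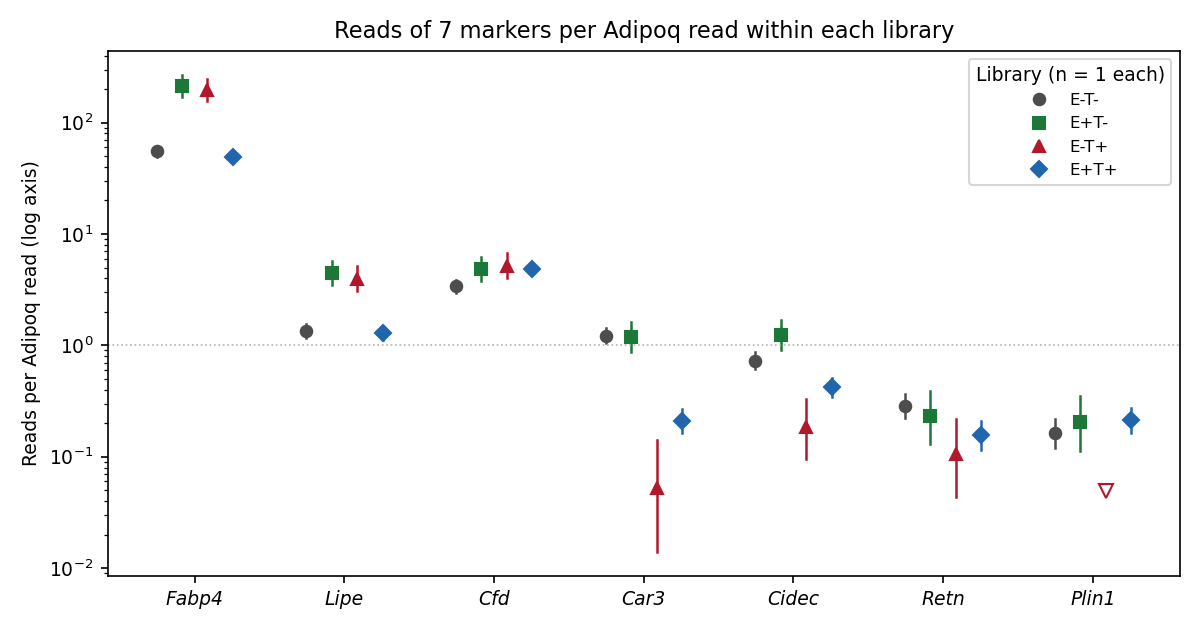
Reads of 7 members per Adipoq read within each library (log axis), with 95% counting intervals. The open triangle is the upper limit of 0.0497 for Plin1 at 0 reads in cancer control, and Car3 and Cidec are lower in both libraries with tumor.

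Other genes of the adipocyte were read from a list of 36, written with earlier results of these data known. In normal exercise against normal control, 15 of 36 were called lower and 0 higher, and in cancer control against normal control, 20 were lower and 0 higher, with medians of −0.68 and −1.30. In cancer exercise against cancer control, 35 could be tested, 9 were called higher and 1 lower. The median there was 0.32, with 24 genes above 0 and 11 below. In cancer exercise against normal exercise, 8 were called higher and 7 lower, with a median of 0.06. The backgrounds of lower or higher calls are those given above. Adig, which encodes a small adipocyte membrane protein, had 51, 24, 2 and 43 reads in the normal control, the normal exercise, the cancer control and the cancer exercise library and so ran with Cidec and Plin1. Pck1, the enzyme that makes glycerol backbone and glucose precursors from oxaloacetate, had 81, 21, 11 and 78 reads and ran with Adipoq.

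The list groups 8 genes under lipogenesis, among them Pck1, which is not an enzyme of fatty acid synthesis. Of the 8, 7 were called lower in normal exercise and 7 in cancer control, each against normal control. Of all genes tested, 6.40% and 13.1% were called lower in these comparisons. In cancer exercise against cancer control 2 were called higher, Pck1 at 3.04 and Thrsp at 1.4, against 9.39% of all genes. Scd1, the stearoyl-CoA desaturase, had 3163 reads in normal control, 467 in normal exercise, 328 in cancer control and 295 in cancer exercise. Fasn, the fatty acid synthase, had 1632, 419, 183 and 146. Both were high in normal control alone, and their log2 differences in cancer exercise against cancer control were 0.16 (−0.07 to 0.39) and −0.01 (−0.34 to 0.31), where that of Adipoq was 2.53. Nnat, a proteolipid gene of the same list, had 42, 10, 4 and 5 reads. The 3 genes of the list with the highest counts, Lpl, Cd36 and Mgll, belong to lipid handling in cardiomyocytes and capillaries as well, and Lpl had 66458 reads in cancer control against 28746 in normal control, a log2 difference of 0.83. Mgll, the monoglyceride lipase, was called lower in cancer control than in normal control, at −1.72 (−1.81 to −1.62), and higher in cancer exercise than in cancer control, at 1.43 (1.33 to 1.53). The transcription factors Pparg and Cebpa, chosen for display after their values were seen, were not called, except that Pparg was called lower in cancer exercise against normal exercise, at −1.09 on 47 reads against 122.

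Brown adipocytes burn lipid through UCP1, and fat near the heart and great vessels of mice can be brown. Ucp1 had 0 reads in normal control, normal exercise and cancer control and 814 in cancer exercise, where it was at least 335-fold higher than in cancer control. Elovl3, a fatty acid elongase of brown fat, had 2, 1, 0 and 47 reads in the same order, Slc27a2 had 0, 0, 0 and 8, and Otop1 had 0, 0, 0 and 4. These markers were at or near 0 in 3 libraries and read in cancer exercise. Zic1 had 3 reads in normal control and 0 elsewhere. Cidea, Kcnk3, Prdm16 and Dio2 were read in every library, Kcnk3 on 2822 to 4212 reads, and so were not particular to cancer exercise in presence. Cidea had 373, 461, 657 and 816 reads and Dio2 had 26, 128, 359 and 136, with cancer control highest. Prdm16 had 80, 120, 45 and 55. Of the 9 markers, 8 could be tested in cancer exercise against cancer control. There 4 were called higher, against 9.39% of all genes, and Dio2 was called lower, against 10.0%. The high Adipoq, Cfd and Plin1 of cancer exercise thus came with reads of Ucp1, Elovl3, Slc27a2 and Otop1, and those of normal control without Ucp1. The part of brown adipocytes in the result was not tested.

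Markers of other cells that lie with fat or share its genes were read in the same way. Of 7 precursor and fibroblast markers, none was called in normal exercise against normal control, and 1 lower and 1 higher in cancer control against normal control, where 13.1% of all genes were lower and 14.6% higher. In cancer exercise, 2 were called lower and 1 higher against cancer control, where 10.0% of all genes were lower and 9.39% higher. Against normal exercise 2 were called lower, where 11.1% of all genes were lower. The summed normalized counts of these markers lay between 2758 and 3732 in the 4 libraries. Mesothelium, which covers the heart and its fat, had 8 markers whose sums ran from 320.1 to 426.3, the highest in cancer control. The sums of 10 endothelium markers were 11351, 9201, 10608 and 12547 in the normal control, the normal exercise, the cancer control and the cancer exercise library. Scaled to library size, the endothelium sums were 1501, 1200, 1262 and 993.7 CPM in the same order, lowest in cancer exercise. Endothelium had a median log2 difference of −0.35 for normal exercise against normal control and of 0.26 for cancer exercise against cancer control. The sums of 10 macrophage markers were 3769, 4902, 9153 and 4694, highest in cancer control. There 8 of 10 were called higher than in normal control, against 14.6% of all genes. The 9 erythroid markers measured summed to 508539 to 526662 in 3 libraries and to 3593713 in cancer exercise. The part of these cells in the members' differences was not tested. In bulk RNA, fewer fat cells and less marker RNA per fat cell cannot be told apart, nor can fat attached to the sample and fat within the heart.

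**Figure D4:**
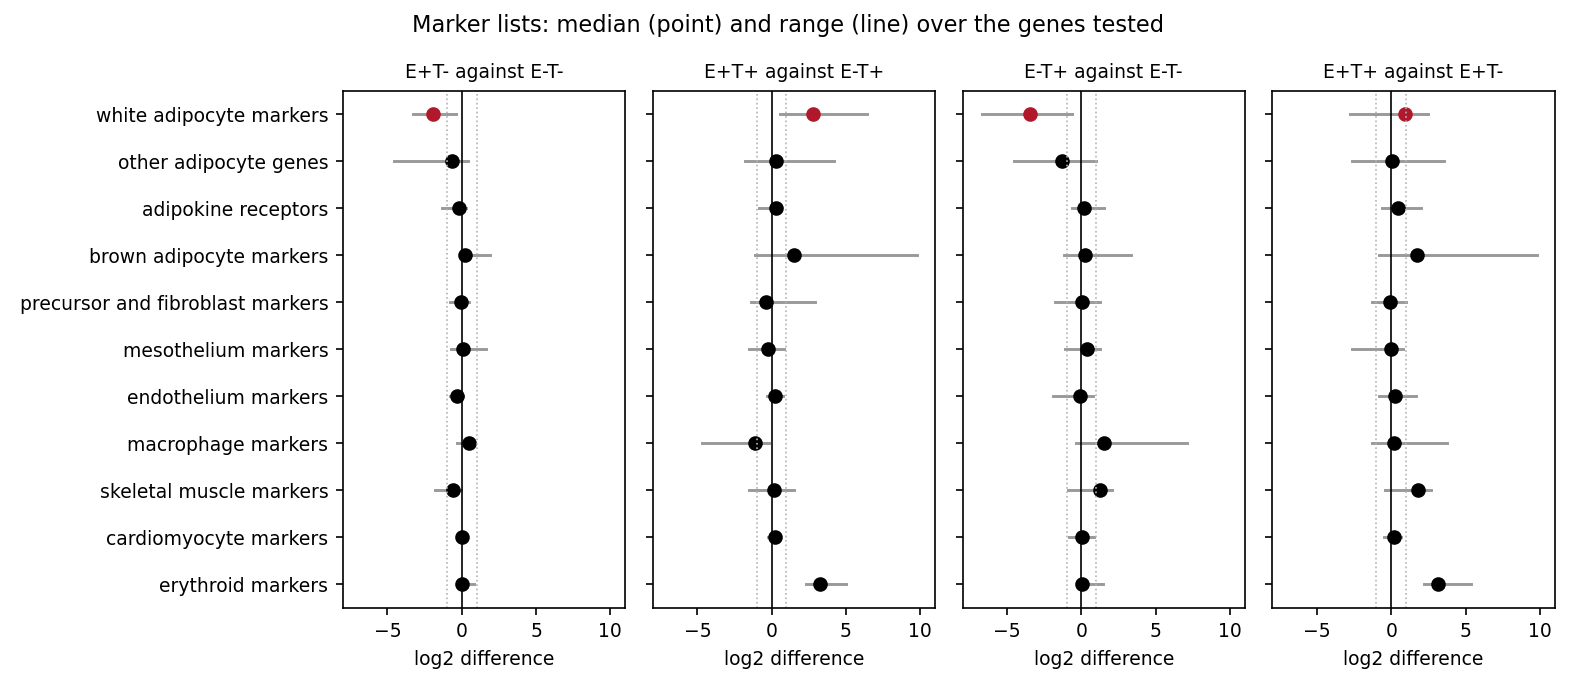
Log2 differences of the marker lists in the 4 comparisons (x axis), with the median of the genes tested as a point and their range as a line, 0-read libraries taken at their deposited value. White adipocyte markers (red) have medians of −1.92, 2.76, −3.44 and 0.91 from the left panel to the right, while those of cardiomyocyte markers lie between 0.03 and 0.20.

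The genes whose pattern lay closest to the members' mean were sought among 11625 other genes whose mean normalized count was 16 or more, by the distance between values centred on their own mean over the 4 libraries. The members' mean stood at 1.55 in normal control, −0.31 in normal exercise, −1.77 in cancer control and 0.53 in cancer exercise. The 15 closest genes, in order, were Pdk4, Kcnj2, Thrsp, Rab17, 2310069G16Rik, Btnl9, Fam13a, Pck1, 4930594C11Rik, Dgke, Galm, Krt222, Bche, Zfp551 and Wdr24, at distances from 0.66 to 0.98 where the median of all candidates was 2.50. Pdk4, the kinase that turns off pyruvate dehydrogenase, had 141, 86, 19 and 76 reads in the normal control, the normal exercise, the cancer control and the cancer exercise library. Thrsp, a regulator of lipogenesis, had 953, 534, 215 and 460. Of the members, Retn lay closest to their mean, at 0.78, and Plin1 farthest, at 2.93, a distance that includes its 0 reads in cancer control at the deposited value. The likeness rests on 4 libraries and is a description.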

How the data were processed

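QuantSeq 3′ mRNA-seq libraries of the heart, 1 per group, were analysed. Bowtie2 (alignment to mm10), bedtools (read counts) and the quantile normalization of edgeR were used by the authors, and their versions are not given in the sources used here. The deposited values are log2 values of the normalized read count plus 1. They were used as deposited.

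Whole reads were recovered by fitting relative library sizes and 1 dispersion (0.149), under which the values are quantile-adjusted negative binomial counts. The fit left a largest error of 0.000523 in log2, and among 25036 values of 5 to 99 reads 100% came within 0.1 of a whole number. Recovery and calls were tested on simulated data.

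Of 44 rows beyond the first of a symbol, the row with the highest mean was used. Calls needed a normalized count of at least 4 in 1 of 2 libraries and a difference of 2-fold. Members and lists were chosen with earlier results of these data known. Named beyond the members were, per list, the 3 genes with the highest mean, the 4 with the largest difference (mean of at least 16) and every brown adipocyte marker, plus the 15 genes closest in pattern. Pparg and Cebpa were named outside this rule. With 1 library per group, no test was run.

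Gene coordinates are from GENCODE M21 and promoters from RefSeq, GRCm38.p6. Alternatives covered scaling, pseudocount, count minimum, depth and the member list. Python 3.11.15, numpy 2.4.6, scipy 1.17.1, pandas 2.3.3, matplotlib 3.10.9 and R 4.3.3 were used.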

Additional observations from a re-analysis of the deposited data

Results flagged for a closer look

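Of the 10 members, 6 were called lower with exercise without tumor and called higher with exercise with tumor. This pattern was found in 1.07% of the 13384 genes tested in both comparisons. As the members were selected on values in these same libraries, the count is a description and not evidence. Lipe (−0.63 and 0.91) and Fabp4 (−0.41 and 0.54) also had opposite signs but were not called. Under scaling to library size, the value of Fabp4 with tumor was −0.05. Lep and Hcar1 were not tested with tumor. Each difference rests on 1 library per group, so that the difference between the groups was not tested. The log2 difference of exercise with tumor minus that without tumor was 4.88 for Adipoq, 4.29 for Cfd and 5.60 for Retn. For Plin1, which had 0 reads in cancer control, it was 8.37 on the deposited values, a size that the pseudocount sets, and at least 6.95 with 3 reads in place of 0. It was 5.24 for Cidec and 6.65 for Car3. In the same libraries 37.3% of cancer exercise reads were from globin genes, and Ucp1 had 814 reads there and 0 elsewhere.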

How the results depend on the processing

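No called member changed direction under any of the 9 alternatives, although some calls were lost or gained. Over all 10 members, tested or not, the median difference was 2.48 in cancer exercise against cancer control and 0.79 in cancer exercise against normal exercise. Under scaling to library size, these medians were 1.89 and 0.10, where all genes shifted together by a median of −0.59 and −0.72. With a pseudocount of 4, the median in cancer control against normal control was −2.36 in place of −3.44. Without Fabp4 and Lipe, the median in cancer exercise against normal exercise was 1.39 in place of 0.79. With a count minimum of 16, 0 members were called lower in cancer exercise against normal exercise, because Hcar1 was no longer tested, and Lep dropped out of the calls against normal control. Lipe was called lower in cancer control against normal control under scaling to library size (−1.03) and without genes over 1% of a library (−1.02), both of which shifted all genes by a median of −0.16. Under the 6 alternatives that can move a single member's value, 204 of 222 values stayed within their counting interval, 18 left it and 0 reversed a called direction.

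The background counts depended more on the settings. Library size scaling gave 3603 lower and 535 higher calls in cancer exercise against cancer control, in place of 1441 and 1348, and 4994 and 796 in cancer exercise against normal exercise, in place of 1579 and 1709. In normal exercise against normal control, 892 lower and 819 higher calls became 406 and 376 with a minimum of 16, 590 and 577 with a pseudocount of 4, and 1534 and 1264 with no minimum. A minimum of 16 gave 850 lower and 777 higher calls in cancer exercise against cancer control and 1085 and 1017 in cancer exercise against normal exercise, and no minimum gave 1967 and 2025 in the former. In cancer control against normal control, 1868 lower and 2085 higher calls became 2468 and 1791 under library size scaling and 2320 and 1789 without genes over 1% of a library, which gave 2069 and 1454 in cancer exercise against normal exercise. Members with few reads limit the precision, since Lep had 8 reads at most and Hcar1 18. No paired analysis was possible because each group has 1 library. No replicate could be left out for the same reason.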

Other observations

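Receptors of the adipocyte hormones were read in every library. Adipor1 had 498, 656, 755 and 832 reads in the normal control, the normal exercise, the cancer control and the cancer exercise library, Adipor2 had 648, 710, 799 and 816, and Cdh13, the cadherin that binds adiponectin multimers, had 1073, 1193, 896 and 869. None of these differed by 2-fold in any comparison, while Adipoq differed by over 4-fold in all of them on the deposited values. Under scaling to library size, the log2 difference of Adipoq was 1.94 in cancer exercise against cancer control. It was 1.73 in cancer exercise against normal exercise. Lepr, the leptin receptor, had 33 reads in normal control, 16 in normal exercise, 124 in cancer control and 55 in cancer exercise, and was called higher in cancer control than in normal control, at 1.51 on the log2 scale, lower in normal exercise than in normal control, at −1.35, and higher in cancer exercise than in normal exercise, at 2.0. Cap1, which binds resistin, had 258 to 495 reads and was not called.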
